A study of Mus musculus with 6 samples.

Results

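Focal adhesions are the sites where integrins, the receptors for extracellular matrix, are tied to actin filaments inside the cell. Between the integrin tails and actin lies a layered plaque of scaffold proteins, in which talin binds the integrin and actin, vinculin strengthens that link, alpha-actinins and filamins crosslink the filaments, and paxillin, zyxin and integrin-linked kinase recruit further proteins. Fibroblasts spread on plastic carry many of these adhesions and express most of the scaffold genes strongly. The 9 genes described here encode scaffold proteins of that plaque (Tln1, Vcl, Actn1, Actn4, Flna, Flnc, Pxn, Zyx and Ilk). They were chosen by gene symbol, and each of the 9 was found among the 29955 genes of the deposited table.

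RNA was sequenced from primary mouse embryonic fibroblasts (MEFs) at passage 3, from 3 Rnf40+/+ and 3 Rnf40-/- samples. Rnf40 encodes a subunit of the ubiquitin ligase that attaches ubiquitin to histone H2B. The paper generated its MEFs from embryos with loxP sites around exons 3 and 4 of both Rnf40 copies. These embryos also carried a tamoxifen-activated Cre expressed from the ubiquitous Rosa26 locus. The paper names no other embryos as the source of the Rnf40+/+ cells. The Rnf40-/- cells were kept for 5 days in 250 nM 4-hydroxytamoxifen (4-OHT) and then for 3 days in medium lacking it. The sources used here do not say whether the Rnf40+/+ cells for RNA-seq also received 4-OHT, so deletion and treatment cannot be told apart, nor do they say which embryos or cultures the replicates came from, so a p-value here measures spread between these samples. Rnf40 itself was left at 40.5% of its Rnf40+/+ level (means 1189.5 ± 91.2 and 482 ± 39.9 normalized counts, SD, n = 3 each). That count is for the whole gene, so it does not give the extent to which exons 3 and 4 were deleted. By western blot, the paper reports effective deletion and loss of ubiquitinated H2B.

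Reads assigned to genes numbered 17053436, 20781071 and 26344170 for the Rnf40+/+ samples, compared with 18741606, 18115481 and 20495627 for the Rnf40-/- samples. A normalized count is the number of reads on a gene divided by the size factor of its library. The scaffold genes were deeply covered, with at least 1710 reads behind any value of any of the 9. Rnf40+/+ replicate 3 stood somewhat apart from the other Rnf40+/+ libraries (chi-square per gene 28.8 and 25.9, against 8.35 between replicates 1 and 2), and the Rnf40-/- libraries lay closer together (5.33 to 13.3). All 9 scaffold genes had their lowest Rnf40+/+ value in replicate 3. In the limma fit that leaves this library out, the 9 calls given next were unchanged, and the log2 fold change of Pxn, the gene that rose, went from 0.38 to 0.31. The count of lower genes was 5, not 6, when replicate 1 or 2 of either group was left out, as Tln1 lost its call.

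In Rnf40-/- MEFs, 6 of the 9 scaffold genes fell (Flna, Zyx, Actn4, Vcl, Ilk and Tln1), 1 rose (Pxn), and 2 were not called (Flnc and Actn1), at an adjusted p under 0.05 (limma, adjusted across the whole table by Benjamini-Hochberg). The background was broad: of 16378 genes tested, 24.1% were lower and 23.3% were higher by the same rule. The median log2 fold change (Rnf40-/- over Rnf40+/+) was -0.40 for the 9 genes and -0.0035 for all genes tested. The groups did not overlap for 7 of the 9 genes, 6 lower and 1 higher, while 28.7% of all genes tested were lower and 27.8% higher without overlap. Most of the changes were of modest size: by the criteria of the study (mean above 15, unadjusted p under 0.05, log2 change beyond 1 in either direction), 1 of the 9 was lower, Flna, and 0 were higher, against 5.7% and 4.25% of all genes tested. In bulk samples such as these, fewer cells of a type and less RNA per cell cannot be told apart.

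**Figure D1:**
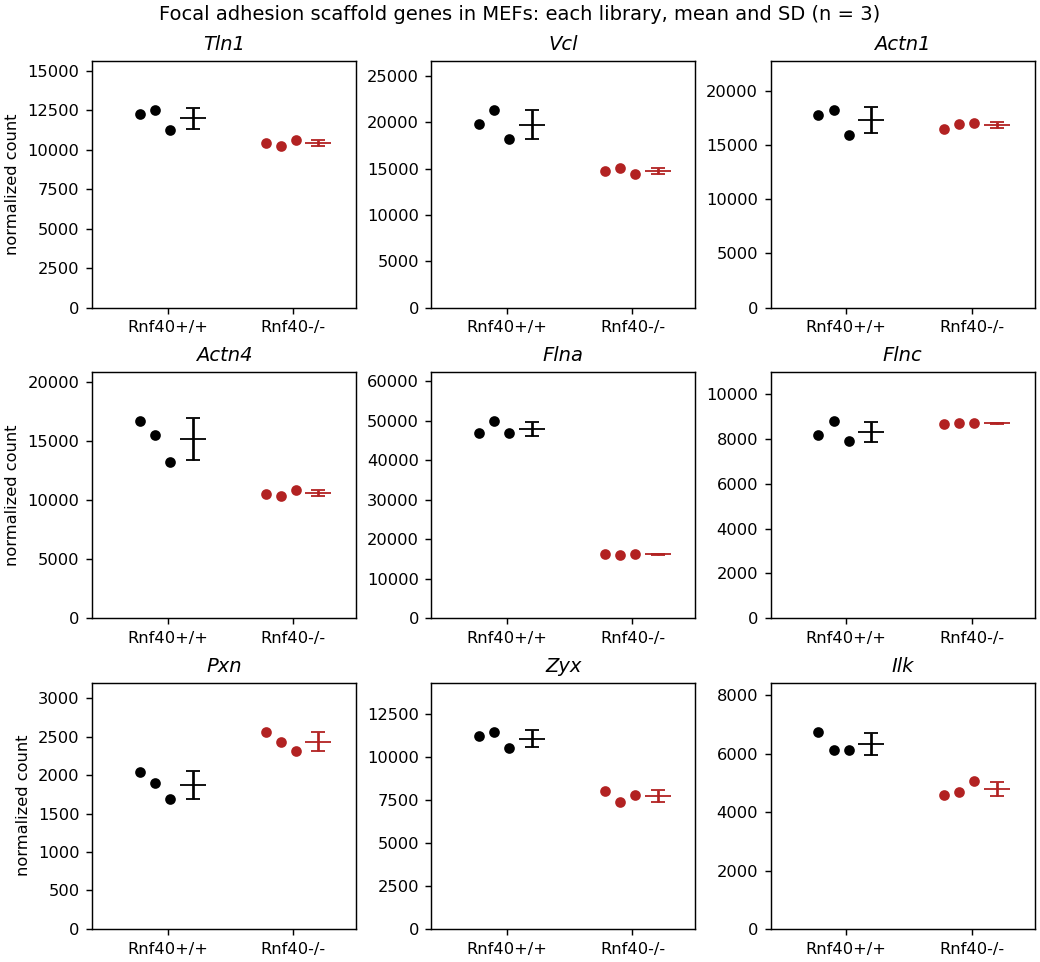
Normalized counts (axis from 0) of the 9 scaffold genes in each library; black points are Rnf40+/+ and red points Rnf40-/- MEFs, and the bar beside each group is the mean with its SD (n = 3). Flna shows the widest separation of the 9 genes, Pxn is higher in the red points, and the groups of Flnc and Actn1 overlap.

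Talin 1 (Tln1) is the protein that binds integrin tails directly and brings integrins into their active form. Its normalized counts were 12265, 12486 and 11225 in Rnf40+/+ and 10424, 10240.2 and 10607 in Rnf40-/- MEFs. The groups did not overlap, although the lowest Rnf40+/+ value came close to the highest Rnf40-/- value. The log2 fold change was -0.20 (standard error 0.07), with a limma adjusted p of 0.0245, lower in all 3 Rnf40-/- samples. This call rested on single libraries, since the adjusted p of limma became 0.0671 or 0.0573 when Rnf40+/+ replicate 1 or 2 was left out, and 0.0931 or 0.0912 when the Rnf40-/- sample left out was replicate 1 or 2, with a range from 0.00514 to 0.0931 over all alternatives. In mm9, Tln1 (ENSMUSG00000028465) lies on the minus strand of chromosome 4 from 43544391 to 43575563, and its longest annotated transcript has 57 exons and 8393 nucleotides.

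Vinculin (Vcl) binds stretched talin and actin and thereby reinforces adhesions under load. Normalized counts of Vcl were 19762, 21281 and 18137 in Rnf40+/+ and 14784, 15096 and 14441 in Rnf40-/- MEFs. Every Rnf40-/- sample lay below every Rnf40+/+ sample, and the Rnf40-/- samples were close to each other. The means of 19727 ± 1572 and 14774 ± 328 (SD, n = 3) left 74.9% of the Rnf40+/+ level, a log2 fold change of -0.41 (standard error 0.07, limma adjusted p = 0.000653). Vcl (ENSMUSG00000021823) spans 21748655 to 21852895 on chromosome 14 in mm9 (plus strand). Of its exonic bases, 39.9% also lie in exons of Ap3m1 on the opposite strand. The libraries were made with a directional kit, but how reads in such shared exons were assigned is not given. Ap3m1, a subunit of an adaptor complex for vesicle traffic, moved the other way, from 1761 ± 198 to 2157 ± 67.0 (SD, n = 3; log2 fold change 0.30, limma adjusted p = 0.0109, but 0.0512 without Rnf40-/- replicate 2; 0.00372 to 0.0512 over the libraries left out in turn).

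The nonmuscle alpha-actinins form antiparallel dimers that bundle actin filaments, and this pair of paralogs divided. Actn1 had normalized counts of 17729.7, 18203 and 15971 in Rnf40+/+ and 16495, 16946 and 17070.1 in Rnf40-/- MEFs. All 3 Rnf40-/- values lay inside the Rnf40+/+ range. The log2 fold change of Actn1 was -0.04 with a 95% interval from -0.19 to 0.12 and a limma adjusted p of 0.695. Actn4 had 16695, 15550.3 and 13267 in Rnf40+/+ and 10524, 10354 and 10845 in Rnf40-/- MEFs. Here the groups were apart, even though the Rnf40+/+ samples spread widely with replicate 3 lowest. Actn4 kept 69.7% of its Rnf40+/+ level (log2 fold change -0.51, standard error 0.08, limma adjusted p = 0.000332).

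Because a ratio of genes within a library does not depend on the size factor, the divergence of the actinins was also measured that way. The ratio of Actn1 to Actn4 normalized counts was 1.06, 1.17 and 1.20 in Rnf40+/+ and 1.57, 1.64 and 1.57 in Rnf40-/- libraries. The balance thus moved toward Actn1 in every Rnf40-/- sample, by 0.48 on the log2 scale, with no overlap (exact two-sided permutation p = 0.1, the smallest that 3 against 3 can give). Actn1 took 52.7% ± 1.69 of the counts of the alpha-actinin family in Rnf40+/+ and 60.7% ± 0.493 in Rnf40-/- MEFs, while Actn4 went from 46.1% ± 1.58 to 38.1% ± 0.634 (SD, n = 3). The muscle actinin Actn2 held 1.03% ± 0.368 and 1.20% ± 0.372 of the family, and Actn3 under that in both groups (0.0984% and 0.0307%). Actn1 (ENSMUSG00000015143) is on the minus strand of chromosome 12 from 81268529 to 81361358 and Actn4 (ENSMUSG00000054808) on the minus strand of chromosome 7 from 29678267 to 29747359 in mm9. Their annotated coding transcripts share 16 stretches of 50 nucleotides, or 0.421% of those of Actn1 and 0.386% of those of Actn4, and none of the other 7 scaffold genes shares such a stretch with another of the 9.

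Filamins are long rod-like dimers that crosslink actin into networks and bind integrin tails, and filamin A showed the steepest fall of the 9 scaffold genes. Flna normalized counts were 46943, 49855 and 46723 in Rnf40+/+ and 16269.8, 15996 and 16291 in Rnf40-/- MEFs. Both groups were tight and far apart. The means of 47841 ± 1748 and 16186 ± 165 (SD, n = 3) put Flna 2.96-fold lower in Rnf40-/- MEFs, a log2 fold change of -1.56 (standard error 0.07, limma adjusted p = 1.66e-08), seen in 3 of 3 samples. Flna (ENSMUSG00000031328) lies on the minus strand of chromosome X from 71468800 to 71495159 in mm9, with a longest transcript of 47 exons and 8456 nucleotides, and none of its exonic bases overlap another annotated gene.

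Flnc, the filamin of muscle (ENSMUSG00000068699, plus strand of chromosome 6 from 29383153 to 29411888 in mm9), did not follow Flna. Its normalized counts were 8172, 8791 and 7912 in Rnf40+/+ and 8666, 8699.8 and 8693 in Rnf40-/- MEFs. The Rnf40-/- values were almost identical to each other and lay within the Rnf40+/+ range. For Flnc the log2 fold change was 0.07 with a 95% interval from -0.07 to 0.21 and a limma adjusted p of 0.402.

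The ratio between the scaffold filamins shifted accordingly. Flna to Flnc counts stood at 5.74, 5.67 and 5.90 in Rnf40+/+ libraries and at 1.88, 1.84 and 1.87 in Rnf40-/- libraries. Flna thus kept the higher count of the pair in every library, but by a much smaller margin in Rnf40-/- MEFs. The means were 5.77 ± 0.120 and 1.86 ± 0.0215 (SD, n = 3), a shift of -1.63 on the log2 scale with no overlap (exact permutation p = 0.1, the smallest possible).

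Paxillin (Pxn), an adaptor phosphorylated by focal adhesion kinase and Src, was the gene of the 9 that rose. Pxn normalized counts were 2042, 1899 and 1685 in Rnf40+/+ and 2562, 2436 and 2308 in Rnf40-/- MEFs. The lowest Rnf40-/- sample was above the highest Rnf40+/+ sample. The mean rose from 1875 ± 179.7 to 2435 ± 127 (SD, n = 3), 1.30-fold, with a log2 fold change of 0.38 (standard error 0.08, limma adjusted p = 0.00194). Tgfb1i1, which encodes Hic-5, the closest relative of paxillin, fell 3.11-fold, from 5226 ± 208 to 1680 ± 80.7 (SD, n = 3; log2 fold change -1.64, limma adjusted p = 7.85e-09). The ratio of Pxn to Tgfb1i1 counts was 0.381, 0.356 and 0.338 in Rnf40+/+ and 1.45, 1.52 and 1.38 in Rnf40-/- libraries. This pair thus exchanged places, with a shift of 2.02 on the log2 scale, the widest of the 5 paralog ratios computed (exact permutation p = 0.1, the smallest possible). Pxn (ENSMUSG00000029528) spans 115956685 to 116005996 on the plus strand of chromosome 5 in mm9.

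Zyxin (Zyx) is a LIM protein that gathers at adhesions and stress fibers under tension and recruits Ena/VASP proteins. Its normalized counts were 11216, 11456 and 10519 in Rnf40+/+ and 8016, 7364 and 7776 in Rnf40-/- MEFs. The groups were well separated. Zyx kept 69.8% of its Rnf40+/+ level (means 11064 ± 487 and 7719 ± 329.6, SD, n = 3; log2 fold change -0.52, standard error 0.07, limma adjusted p = 4.91e-05). Lpp, a paralog of zyxin at the same structures, fell further, from 9603 ± 417 to 4213 ± 183 (SD, n = 3; log2 fold change -1.19, limma adjusted p = 7.15e-08). The ratio of Zyx to Lpp accordingly went up, from 1.15 ± 0.0699 to 1.83 ± 0.0794 (SD, n = 3), by 0.67 on the log2 scale with no overlap. Zyx (ENSMUSG00000029860) spans 42299827 to 42310145 on the plus strand of chromosome 6 in mm9. Small parts of the exonic bases of Zyx (4.28%), Actn4 (6.73%) and Tln1 (3.67%) also lie in exons of a neighbour on the opposite strand, and those of Pxn, Flnc and Actn1 do not.

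Integrin-linked kinase (Ilk) is a pseudokinase that joins PINCH and parvin proteins into a complex on the tails of beta integrins. Ilk normalized counts were 6749, 6122 and 6111 in Rnf40+/+ and 4596, 4691 and 5057 in Rnf40-/- MEFs. No Rnf40-/- sample reached the Rnf40+/+ range. Ilk kept 75.6% of its Rnf40+/+ level (log2 fold change -0.40, standard error 0.07, limma adjusted p = 0.000422). The gene (ENSMUSG00000030890) is compact, from 112885106 to 112891439 on the plus strand of chromosome 7 in mm9. Its overlaps with annotated exons of Rrp8 and of Taf10 on the minus strand, added together, came to 89.7% of its exonic bases over all annotated transcripts. Both of these neighbours were lower too, Taf10 with a log2 fold change of -0.71 and a limma adjusted p of 0.000231, and Rrp8 with -0.62 and 0.000133. Their means in Rnf40+/+ MEFs were 1089 ± 168 for Taf10 and 709.8 ± 32.6 for Rrp8 (SD, n = 3), below the 6327 ± 365 of Ilk. How much of the Ilk values came from reads in shared exons was not tested.

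Talin also has a less abundant paralog, Tln2, and it rose while Tln1 fell slightly. Tln2 normalized counts went from 1001 ± 54.9 to 1395 ± 12.9 (SD, n = 3; log2 fold change 0.48, limma adjusted p = 0.000146). The ratio of Tln1 to Tln2 was 13.05, 11.97 and 10.97 in Rnf40+/+ and 7.45, 7.41 and 7.54 in Rnf40-/- libraries. It fell by 0.68 on the log2 scale with no overlap between the groups (exact permutation p = 0.1, the smallest possible). The share of Tln2 in talin counts grew from 7.72% ± 0.618 to 11.8% ± 0.0911 (SD, n = 3), so Tln1 remained the main talin transcript in both groups.

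**Figure D2:**
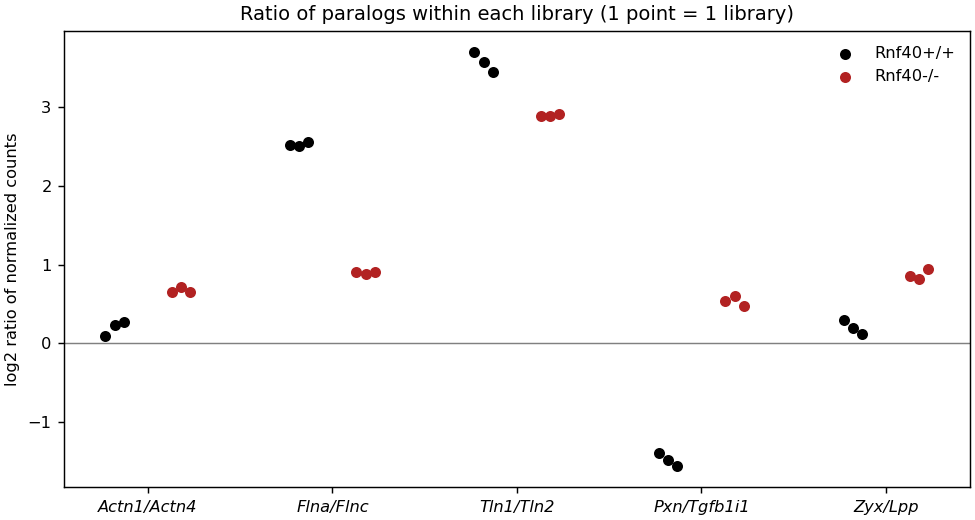
Log2 ratio of normalized counts of paralogous genes within each library (1 point per library; black Rnf40+/+, red Rnf40-/-). The groups are apart for all 5 ratios, and Pxn/Tgfb1i1 crosses the line at 0, where both genes have equal counts.

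The scaffold genes can be ordered by level once counts are divided by the length of the longest annotated transcript. Per kilobase, the order in Rnf40+/+ MEFs was Flna (5658 ± 207 normalized counts), Actn1 (4627 ± 315), Actn4 (3913 ± 450.1), Vcl (3773 ± 301), Zyx (3567 ± 157), Ilk (3525 ± 203), Tln1 (1429 ± 80.2), Flnc (905 ± 49.3) and Pxn (506 ± 48.5; SD, n = 3 each). Each gene from Actn1 down to Zyx overlapped the next in single samples, so adjacent places among these and Ilk are not resolved. All Actn1 samples (lowest 4271) still lay above those of Vcl (highest 4070), Zyx (3693) and Ilk (3760). Flna stood above all of them, and Tln1, Flnc and Pxn each stood apart. In Rnf40-/- MEFs Actn1 came first (4503 ± 80.9), and Vcl (2825 ± 62.6), Actn4 (2727 ± 64.3), Ilk (2664 ± 136) and Zyx (2488 ± 106) followed, each overlapping the next. Flna dropped below all of these to 1914 ± 19.5 but remained above Tln1 (1242 ± 21.9), Flnc (948 ± 1.95) and Pxn (657 ± 34.4; SD, n = 3 each). These values assume that the longest annotated transcript is the one expressed.

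Together the 9 scaffold genes took 6952, 6873 and 6253 reads per 1000000 in Rnf40+/+ libraries and 4832, 4857 and 4810.3 in Rnf40-/- libraries. The summed share in Rnf40-/- MEFs was 72.2% of that in Rnf40+/+ MEFs, with no overlap (exact permutation p = 0.1, the smallest possible). Most of that difference lay in Flna, which took 2293 ± 66.6 and 846 ± 4.77 reads per 1000000 (SD, n = 3). For the 8 other genes the share was 4400 ± 324 in Rnf40+/+ and 3987 ± 21.8 in Rnf40-/- MEFs (SD, n = 3), or 90.6%.

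Profiles across the 6 libraries were compared as log2(normalized count + 1) minus the Rnf40+/+ mean, by the root mean square difference between genes. Among the scaffold genes, Zyx and Actn4 were each other's nearest (0.0759), as were Flnc and Actn1 (0.0817). Vcl was nearest to Zyx (0.0947) and Ilk to Vcl (0.0983), while Tln1 was nearest to Actn1 (0.118) and Pxn to Flnc (0.237). Flna had no close match among the 9, its nearest being Zyx at 0.739. Among all tested genes with a mean above 100, the genes most like Flna were Tceal8 (0.0459), Anln (0.0480), which encodes the actin-binding protein anillin, and Fam198b (0.0594). For Zyx they were Farp1 (0.0172), Prssl1 (0.0263) and Mnat1 (0.0289), and for Actn4 they were Fosl1 (0.0392), Dfna5 (0.0401) and Eif4g2 (0.0405).

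Other genes of the adhesion were read from lists set by role. Of 10 paralogs of the scaffold genes, 3 rose, 3 fell and 4 were not called, with a median log2 fold change of -0.11. The rises were Tln2 and the zyxin relatives Limd1 (0.47, limma adjusted p = 0.000232) and Ajuba, listed as Jub (0.32, adjusted p = 0.00243), and the falls were Tgfb1i1, Lpp and the muscle gene Actn3 (-1.82, adjusted p = 0.00806), which had few reads (means 32.8 ± 18.2 and 8.48 ± 4.09, SD, n = 3). Both counts are near the shares among all genes tested (23.3% higher and 24.1% lower).

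The partners of ILK and the kindlins, which activate integrins together with talin, were lower in 6 of the 7 genes tested. This compares with 24.1% of all genes tested, and the list had a median log2 fold change of -0.36. Leaving out single libraries gave between 4 and 6 lower genes. It was 4 without Rnf40+/+ replicate 1 or 2 or without Rnf40-/- replicate 1, where Rsu1 and Parvb, named here after their values were seen, lost their calls (limma adjusted p 0.0215 and 0.0192 with all libraries, and up to 0.085 and 0.0789 with 1 left out, from lows of 0.0006 and 0.00255). It was also 4 without Rnf40-/- replicate 2, where Rsu1 and Fermt3 lost theirs. The seventh, Lims1, had a log2 fold change of 0.07 with an adjusted p of 0.44. Lims2, which like Lims1 encodes a PINCH protein, went from 329.6 ± 20.7 to 56.7 ± 2.72 normalized counts (SD, n = 3), 5.81-fold lower (log2 fold change -2.52, limma adjusted p = 7.26e-08). Fermt2, the kindlin of fibroblasts, went from 7666 ± 789 to 4568 ± 109 (SD, n = 3; -0.74, limma adjusted p = 1.00e-05). Fermt3, the kindlin of blood cells, was low in both groups (95.5 ± 48.2 and 41.4 ± 9.88) with a log2 fold change of -1.11, and its call (limma adjusted p = 0.0117) was lost without Rnf40-/- replicate 2 (0.0545, in a range from 0.00319 to 0.0545 over the libraries left out). Fermt3 counts were 63.3, 72.4 and 150.9 in Rnf40+/+ and 39.8, 32.4 and 51.9 in Rnf40-/- MEFs, and the summed macrophage markers, given further on, were likewise highest in Rnf40+/+ replicate 3 and lower in Rnf40-/- MEFs. Most of that sum was Lyz2 (5314 ± 1867 and 2264 ± 152, of summed means 7005 and 3786, SD, n = 3). Of the 8 macrophage markers, Lyz2 and Tyrobp fell (log2 fold changes -1.18 and -1.71), Ptprc and Cd14 rose (1.37 and 0.66), and 4 were not called. The part of macrophages in the Fermt3 result was not tested. Parvg and Fermt1 had too few reads to be tested.

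The adhesion signalling genes that were called went mostly the other way, as Pxn did. Of 14 genes, 8 rose, 1 fell and 5 were not called, beside 23.3% higher and 24.1% lower among all genes tested. The median log2 fold change of the 14 was 0.32. Leaving out single libraries gave 7 to 9 rises, and Ptk2, focal adhesion kinase itself, named here after its values were seen (limma adjusted p = 0.018), lost its call when Rnf40-/- replicate 1, 2 or 3 was left out (0.0542, 0.0502 and 0.0626, in a range from 0.00977 to 0.0626). Arhgef7, the exchange factor beta-PIX, rose 1.87-fold, from 1213 ± 131 to 2271 ± 65.2 normalized counts (SD, n = 3; log2 fold change 0.91, limma adjusted p = 3.16e-06). Ptk2b, the focal adhesion kinase relative Pyk2, rose 1.79-fold (0.84, adjusted p = 2.18e-06), and Bcar1, the docking protein p130Cas, rose 1.65-fold (0.73, adjusted p = 1.36e-06). The gene that fell was the kinase Src, from 2415 ± 117 to 1647 ± 77.3 (SD, n = 3; -0.55, limma adjusted p = 4.02e-05).

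Adaptors at the actin end of the adhesion fell in 9 of 14 genes, rose in 1 and were not called in 4. Among all genes tested, 24.1% were lower and 23.3% higher, and the median log2 fold change of the 14 adaptors was -0.34. Tns4, named after its values were seen, was just short of a call (limma adjusted p = 0.0528) and was called without Rnf40+/+ replicate 1 (0.0232), with a pseudocount of 10 (0.0453) and with at least 10 reads in every library (0.0445), in a range from 0.0232 to 0.176, which made 2 rises. Vasp, an actin polymerase that zyxin recruits, went from 3143 ± 88.7 to 1560 ± 6.23 normalized counts (SD, n = 3; -1.01, limma adjusted p = 1.46e-07). Its relative Enah, recruited by the same proteins, was the gene that rose (0.42, limma adjusted p = 0.000285). Pdlim7, a LIM protein of stress fibers, fell by 0.87 on the log2 scale (limma adjusted p = 6.24e-06), and Synpo2 by 1.00 (adjusted p = 0.0057) at low counts (74.6 ± 20.2 and 36.0 ± 2.28, SD, n = 3).

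Of 15 integrin subunits tested, 8 fell, 2 rose and 5 were not called, beside 24.1% lower and 23.3% higher among all genes tested. The median log2 fold change of the 15 was -0.33. Itga5, the alpha chain of the main fibronectin receptor, had 11561, 10818 and 9447 normalized counts in Rnf40+/+ and 4549, 4241 and 4758 in Rnf40-/- MEFs. It was thus well below the Rnf40+/+ range in each Rnf40-/- sample (log2 fold change -1.23, limma adjusted p = 2.98e-07). The collagen receptor chain Itga11 fell by 1.17 (adjusted p = 7.03e-08) and Itga9 by 1.07 (adjusted p = 2.10e-05) on the log2 scale. Without Rnf40+/+ replicate 1, 9 fell and 3 rose. Itga6, a laminin receptor chain, rose (0.57, limma adjusted p = 0.0025). Itga3 was called higher (1.01, limma adjusted p = 0.0355), but its groups overlapped, with 1959.7, 667 and 490.3 in Rnf40+/+ and 1811, 1663 and 1735 in Rnf40-/- MEFs. That call was lost in 5 of the 6 fits with a library left out (limma adjusted p 0.159 or 0.0921 when Rnf40+/+ replicate 2 or 3 was dropped, and 0.0836, 0.0842 or 0.0894 when the dropped sample was Rnf40-/- replicate 1, 2 or 3, in a range from 2.37e-07 to 0.159) and in edgeR (0.126) and DESeq2 (0.336). Itgb1, the most abundant subunit and one chosen for mention after its values were seen, had 89160 ± 6673 and 95164 ± 1678 normalized counts (SD, n = 3; limma adjusted p = 0.411). Itgb8 had too few reads to be tested.

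**Figure D3:**
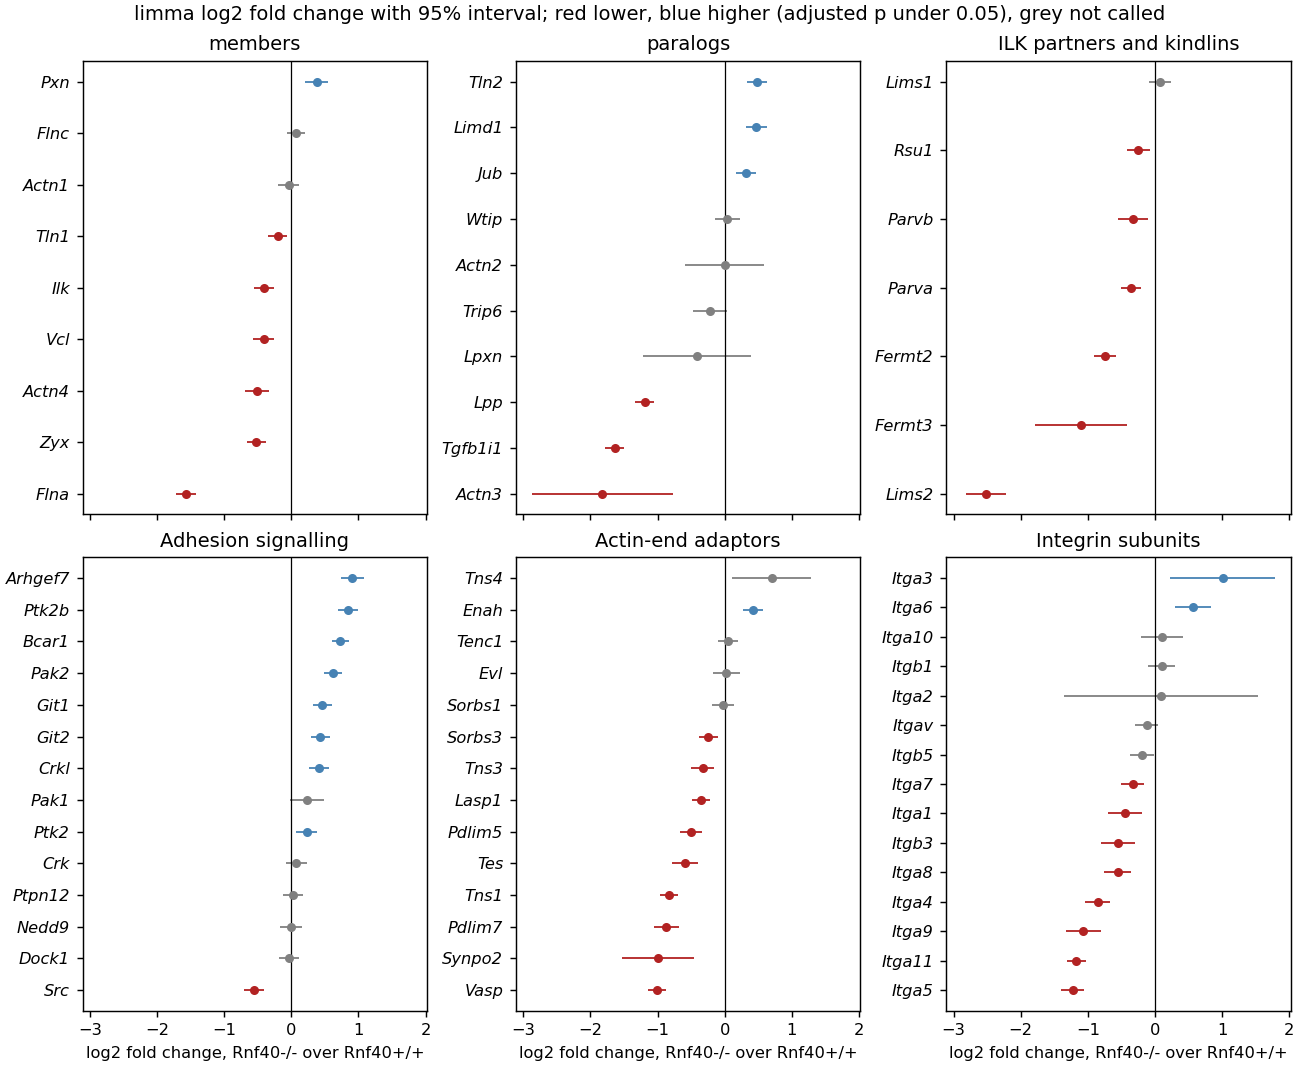
Log2 fold change (Rnf40-/- over Rnf40+/+, limma) with its 95% interval for the 9 scaffold genes and 5 lists of adhesion genes; red genes are lower and blue genes higher at an adjusted p under 0.05, and grey genes are not called. Blue points prevail in the adhesion signalling panel (8 of 14) and red points in the panel of ILK partners and kindlins (6 of 7). Among all genes tested, 23.3% were higher and 24.1% lower.

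Over the 5 lists of adhesion genes described so far, 60 of 63 genes were tested, of which 27 fell, 14 rose and 19 were not called, with a median log2 fold change of -0.16, beside 24.1% lower and 23.3% higher among all genes tested. The share of rises was thus near that of all genes. A separate list holds transcription factors that are known to act on cytoskeletal genes, SRF with its cofactors and the TEAD factors with YAP. Of these 10 genes, 4 fell, 2 rose and 4 were not called, with a median of -0.04, beside the same 24.1% lower and 23.3% higher among all genes. The count of rises was 4 without Rnf40+/+ replicate 2, where Tead1 and Wwtr1, chosen for mention after their values were seen, were called as well (limma adjusted p 0.0363 and 0.0441). With all libraries Tead1 was just short of a call (0.052) and was called higher also with the size factors of DESeq2 or TMM, in edgeR and DESeq2, with replicate number as a block in the limma fit (the replicate block) and without Rnf40-/- replicate 3, in a range from 0.0338 to 0.177, and Wwtr1 ranged from 0.0441 to 0.516. The SRF cofactor Mkl1, likewise named after its values were seen, was not called (0.0576) but was called lower with TMM, in edgeR, with the block and without Rnf40+/+ replicate 3, in a range from 0.0143 to 0.183. Srf had 1673, 1637 and 1643 normalized counts in Rnf40+/+ and 1105, 1091 and 1127 in Rnf40-/- MEFs, 1.49-fold lower (log2 fold change -0.58, limma adjusted p = 1.67e-05). Tead2 fell by 0.77 (adjusted p = 1.02e-05) and Tead3 by 0.66 (adjusted p = 8.27e-06) on the log2 scale. Yap1, likewise named after its values were seen, fell from 4998 ± 489 to 3759 ± 73.5 normalized counts (SD, n = 3; log2 fold change -0.41, limma adjusted p = 0.000757). Mkl2 rose (0.43, limma adjusted p = 0.000257), as did the scarce Tead4 (0.72, adjusted p = 0.0101), whose call was lost without Rnf40-/- replicate 3 (0.0571, in a range from 0.00275 to 0.0571 over the libraries left out).

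Promoter windows of 250 bases before to 50 after annotated starts were available from RefSeq (GRCm38.p6, a later build than the mm9 positions above) for 8 of the 9 scaffold genes. They were searched on both strands for the CArG box that SRF binds and for GGAATG, which TEAD factors bind. The CArG box was found in 1 of the 8, Vcl, and in 1.63% of the 32851 promoters of the table, or at least 1 promoter of 1.81% of its 27025 genes. GGAATG was found in 4 of the 8, Vcl, Flna, Actn4 and Flnc, and in 14.7% of all promoters, or at least 1 promoter of 16.6% of the genes. The scaffold genes were counted like the genes, over all their promoters. A match is a description of letters and not a measured binding site. The windows of genes that fell are shown because Vcl holds both motifs and Flna changed most. On the plus strand of Vcl these are chr14:20929151-20929200 around the CArG box and chr14:20929235-20929280 around GGAATG, and on the minus strand they are chrX:74246655-74246700 for Flna and chr7:28962523-28962568 for Actn4. Capitals mark the motif, and CATTCC is GGAATG read on the other strand.
Vcl, CArG box: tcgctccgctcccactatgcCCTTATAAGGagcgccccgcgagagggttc
Vcl, GGAATG: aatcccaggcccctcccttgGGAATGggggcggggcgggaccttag
Flna, GGAATG: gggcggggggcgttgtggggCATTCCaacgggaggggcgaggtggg
Actn4, GGAATG: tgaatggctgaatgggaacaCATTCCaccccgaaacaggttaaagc

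Markers of cell type and state moved alongside the scaffold genes. Their counts, here and in the next paragraph, stand beside 24.1% lower and 23.3% higher among all genes tested. All 10 fibroblast markers were tested, of which 8 fell and 2 were not called, and their summed normalized counts were 375274, 384082 and 430679.9 in Rnf40+/+ and 205076, 199456 and 214996 in Rnf40-/- MEFs. The collagen gene Col1a2 was the most abundant of them in Rnf40+/+ MEFs (116406 ± 11237, against 24166 ± 404 in Rnf40-/-), and Vim in Rnf40-/- MEFs (79607 ± 4263, against 95326 ± 8965 in Rnf40+/+; SD, n = 3 each). The summed count of the fibroblast markers was thus high in both groups, while single markers such as Lum were low (146 ± 88.6 and 89.7 ± 23.5, SD, n = 3). All 7 markers of smooth muscle and myofibroblasts fell, with sums of 168117, 182107 and 165435 against 27786, 25403 and 30869.5. Acta2, the most abundant of them, went from 104533 ± 6080 to 20661 ± 2093 (SD, n = 3). All 6 proliferation markers fell as well, with sums of 4622, 3580.4 and 3688 in Rnf40+/+ against 676, 679 and 566 in Rnf40-/- MEFs, and the most abundant was Top2a in Rnf40+/+ and Cdk1 in Rnf40-/- MEFs. The part of these changes in the fall of the scaffold genes was not tested.

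Of 8 macrophage markers, 2 fell, 2 rose and 4 were not called. Their sums were 5560.4, 5979 and 9476 in Rnf40+/+ and 3845, 3570.3 and 3943 in Rnf40-/- MEFs, with Lyz2 the most abundant, and Rnf40+/+ replicate 3 was highest. Since Flnc, Actn2 and Actn3 are muscle genes, muscle markers were read too. Of 10 skeletal muscle markers, 4 could be tested and 2 of them fell, and the defining factor Myod1 had 0 reads in all 6 libraries. The skeletal muscle sums were 5017, 2162 and 2025 in Rnf40+/+ and 725, 833 and 885 in Rnf40-/- MEFs, with Acta1 the most abundant by mean in both groups and Rnf40+/+ replicate 1 highest. Actn2 and Actn3 are themselves among these 10 markers and among the 4 tested, and Actn3, counted above as a paralog, is 1 of the 2 that fell. Within Rnf40+/+, Actn3 (53.7, 21.4 and 23.2 normalized counts in replicates 1, 2 and 3) and Actn2 (416, 208 and 384) were also highest in replicate 1, and Flnc in replicate 2. Cardiac markers were low in both groups (sums 139 ± 20.3 and 145 ± 21.4), as were endothelial (86.1 ± 51.9 and 216 ± 57.7, with 3 of the 4 tested higher) and epithelial markers (552 ± 197 and 705 ± 127; SD, n = 3 each), with Tnnt2 and Krt19 the most abundant cardiac and epithelial markers in both groups, and Tek in Rnf40+/+ and Kdr in Rnf40-/- the most abundant endothelial markers. The Tek count was highest in Rnf40+/+ replicate 1 (115, 11.2 and 16.0 in replicates 1, 2 and 3), as was the scarce Pecam1 (4.78, 4.08 and 2.40). Kdr (21.5, 26.5 and 34.3) and Tie1 were instead highest in Rnf40+/+ replicate 3, and Cdh5 in replicate 2. Of the cardiac markers 1 of 3 tested fell, and the epithelial markers tested, Krt18 and Krt19, were not called (limma adjusted p 0.276 and 0.107). The untested epithelial marker Krt8 was highest in Rnf40+/+ replicate 1 (58.5, 1.02 and 9.58 in replicates 1, 2 and 3), as were Itga3, Itga6 (942, 733 and 633) and Itga2 (100.3, 13.3 and 10.4) within that group. The other epithelial markers were not highest there. Krt18 (22.7, 18.4 and 27.9), Krt19 (350, 420 and 737) and the untested Epcam peaked in Rnf40+/+ replicate 3, and the untested Cdh1 in replicate 2. The part of other cell types in the scaffold values was not tested.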

How the data were processed

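RNA-seq of 3 Rnf40+/+ and 3 Rnf40-/- MEF samples was analysed. The deposited values are signal made by the authors, reads on a gene over a DESeq size factor of the library, after mapping to the mouse transcriptome (mm9). Every value was a whole multiple of 1 step per library (tolerance 0.05), which gave back the reads. Of 29955 genes, 16378 passed filterByExpr of edgeR (version 4.0.16). They were tested with limma (version 3.58.1, trend) on log2(normalized count + 1), with Benjamini-Hochberg adjustment. Intervals are 95%. Paralog ratios and read shares used exact two-sided permutation over samples. Alternatives were other scalings, edgeR, DESeq2 (version 1.42.0), other filters and pseudocounts, a replicate block, and each library left out. Named are the 9 members, Rnf40, the called genes with the 3 largest rises and falls of each list, untested list genes, nearest profiles, and neighbours sharing exons with Vcl or Ilk. Other genes, such as Lims1, Actn2, Lum and other markers, were picked for mention after their values were seen. The members and lists were chosen with earlier results of these data known. Tests were tried on simulated data.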

Additional observations from a re-analysis of the deposited data

How the results depend on the processing

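Of the counts, ratios, read shares and scaffold gene fold changes recomputed under alternatives, 490 were tallied as the same, 15 moved, 4 lost their call and 1 reversed. A count was tallied as the same if its ratio to the main count stayed under a set limit. A change from 6 to 4 lower genes among the ILK partners and kindlins was thus not tallied as a move. The other values tallied as the same kept their direction and side of the threshold or stayed within their spread. By the criteria of the study, which set a minimum mean, an unadjusted p and a minimum fold change together, all genes gave 696 higher and 934 lower. The scaffold genes gave 0 higher and 1 lower. With the minimum mean alone, at an adjusted p under 0.05, 3654 genes were higher and 3932 lower, and 1 and 6 scaffold genes. An unadjusted p under 0.05 is looser than an adjusted one, so the drop in the counts came with the minimum fold change. The reversal was Actn1, a gene not called, whose log2 fold change ran from -0.0937 to 0.000685 with each library left out, the latter without Rnf40+/+ replicate 2; the cause was not tested. The 4 lost calls were of Tln1; single genes of the lists are not in this tally, and those that lost a call are given with their lists. With a replicate block, 4021 genes were higher and 4196 lower, and 1 and 6 scaffold genes. Correlations between same-number libraries of the groups were 0.0118, 0.0174 and 0.0212, inside the range of -0.0531 to 0.0371 for different numbers. The sources used here do not say whether samples with the same number were paired. Flna stayed between -1.58 and -1.53 over 17 alternatives. With 3 samples a group, an exact test of a ratio cannot pass 0.05.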
